A study of Homo sapiens with 9 samples.

Results

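The ATP-binding cassette (ABC) transporter superfamily, to which the drug efflux pump gene ABCB1 belongs, was described in HEK293T cells carrying 3 versions of p53. Its members were taken by name and biotype alone: every protein-coding gene whose symbol was ABC, a subfamily letter from A to G and a number, which gave 45 of the 78986 genes in the count table. HEK293T is a line of human embryonic kidney origin that carries the SV40 large T antigen, a protein that binds p53; the labels give its name without the final T. Lentiviral, puromycin-selected stable lines expressed WT, G245S or R273H p53 in addition to what the cells already carry, and all were kept in 1.5 µg/mL puromycin. G245S and R273H are cancer hotspot substitutions in the DNA-binding domain. RNA was sequenced from 3 replicates of each line, called biological by the study; no line without the lentivirus was among the samples, and the sources do not say how many independent lines were made of each kind.

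ABC proteins share a nucleotide-binding domain that hydrolyses ATP. Most use that energy to move drugs, lipids, peptides, heme or metabolites across a membrane, while the members of subfamilies E and F have no membrane-spanning part and act on ribosomes and in translation. ABCB1 encodes P-glycoprotein, which exports many hydrophobic drugs and is known for its role in multidrug resistance and in the apical membrane of the kidney tubule.

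The 8 deeper of the 9 libraries held between 7325514 and 9667306 counts, and WT replicate 3 held 1486315. The study left out 1 WT library for low reads without numbering it, so the shallow library was kept out of the fits here. For some of the genes its values are given beside them. A count of 3, taken as the limit of detection, corresponded to between 0.315 and 0.407 counts per 1000000 (CPM) in the 8 fitted libraries and to 1.94 CPM in WT replicate 3. Of the epithelial keratin genes, KRT18 lay between 59.3 and 148 CPM and KRT8 between 9.71 and 50.5 CPM over the 9 libraries. The cadherin gene CDH2 lay between 64.7 and 84.5 CPM. Of the kidney lineage genes, LHX1 reached at least 5.32 CPM and PAX2 at least 2.20 CPM in every library, whereas PAX8 did not exceed 0.231 CPM. Of the markers of other cells, the leukocyte gene PTPRC did not exceed 7 counts in any library. PECAM1 (endothelium), ALB (hepatocyte) and VIL1 (brush border) did not exceed 1, 4 and 2 counts. The fibroblast gene COL1A1 was not low, at 13.0 to 36.6 CPM over the 9 libraries, above the lowest values of LHX1 and PAX2. In RNA from whole cultures, fewer cells expressing a gene and less RNA per cell cannot be told apart.

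ABCB1 (ENSG00000085563) lies on the minus strand of chromosome 7, at 87503017 to 87713323 in GRCh38. RefSeq places starts of the gene at both a downstream and an upstream position. The sequences of both are shown because their base composition differs, together with those of ABCF1, the ABC gene with the highest level per length, and ABCB11, the bile salt export pump gene of the liver, which stayed below 3 counts in every library. Each is the 250 bases before the annotated start in RefSeq (GRCh38.p14), read 5′ to 3′ on the strand of the gene, with CG dinucleotides in capitals.
ABCB1 downstream start, chr7:87600885-87601134, minus strand: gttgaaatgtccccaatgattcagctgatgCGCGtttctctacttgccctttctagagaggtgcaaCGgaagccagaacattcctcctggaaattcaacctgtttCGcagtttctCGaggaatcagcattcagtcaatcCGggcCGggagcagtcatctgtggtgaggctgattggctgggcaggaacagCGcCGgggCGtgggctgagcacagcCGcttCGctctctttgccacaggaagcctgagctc
ABCB1 upstream start, chr7:87713296-87713545, minus strand: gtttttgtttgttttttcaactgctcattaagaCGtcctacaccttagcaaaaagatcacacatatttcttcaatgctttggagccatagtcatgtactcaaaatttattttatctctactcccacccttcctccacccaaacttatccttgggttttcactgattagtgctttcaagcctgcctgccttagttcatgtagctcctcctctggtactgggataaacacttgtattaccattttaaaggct
ABCF1, chr6:30571192-30571441, plus strand: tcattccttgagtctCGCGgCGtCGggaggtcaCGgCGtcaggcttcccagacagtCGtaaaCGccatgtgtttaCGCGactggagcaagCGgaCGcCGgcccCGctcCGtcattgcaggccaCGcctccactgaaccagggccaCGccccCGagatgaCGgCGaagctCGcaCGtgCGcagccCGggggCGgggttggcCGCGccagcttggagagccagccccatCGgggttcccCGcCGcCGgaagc
ABCB11, chr2:169031325-169031574, minus strand: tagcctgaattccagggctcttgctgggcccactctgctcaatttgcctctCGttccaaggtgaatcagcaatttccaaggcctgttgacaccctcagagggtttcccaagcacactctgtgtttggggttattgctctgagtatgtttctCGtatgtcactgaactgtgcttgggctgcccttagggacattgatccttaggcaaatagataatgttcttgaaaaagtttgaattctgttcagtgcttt
The printed bases hold 12 CpG at the downstream start of ABCB1 and 1 at the upstream start, against 31 at ABCF1 and 2 at ABCB11. The downstream window of ABCB1 holds the letters CCAAT at position -238 and their reverse complement, ATTGG, at position -79, counted from the start. Over all 35116 starts of the table, 34.6% of the 300-base windows (250 bases before and 50 after the start) hold CCAAT on either strand. No GGGCGG, the core of the GC box, was found on either strand in either ABCB1 window, and ABCF1 holds it at position -63.

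Of the 45 ABC genes, 26 reached at least 3 counts in each of the 8 fitted libraries and are called detected here. That share was 57.8%, and it was 65.2% over all 20120 protein-coding genes of the table. Another 14 reached 3 counts in at least 1 library but not in all the fitted ones. The remaining 5 stayed below 3 counts in every library: ABCB11, the lipid transporter genes ABCA9 and ABCA13, the retinal transporter gene ABCA4, and ABCC12, which has no settled substrate. None of the 45 was without any count. By subfamily, the detected genes numbered 4 of 12 in A, 6 of 9 in B, 6 of 11 in C, 3 of 4 in D, the single member of E, all 3 of F and 3 of 5 in G. All ABC genes together took 0.0794% to 0.0922% of each library's counts.

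Of the soluble members, ABCF1, ABCF2 and ABCE1 led the family, and ABCF3 ranked 8 of 45 per length at 4.41 CPM per kb. ABCF1, ABCF2, ABCF3 and ABCE1 together held 53.8% of the family's summed CPM, and 60.9% once each gene's CPM was divided by its exon length in kilobases. ABCF1, which takes part in translation initiation, had the highest level per length, 32.5 CPM per kb (SD 2.19 over the 8 fitted libraries). ABCF2 followed at 27.6 (SD 1.19), and ABCE1, which splits ribosomes apart for recycling, at 26.1 CPM per kb (SD 1.41). The ranges of ABCF2 and ABCE1 overlapped over the 8 fitted libraries, 26.3 to 29.9 and 24.7 to 28.9 CPM per kb. The lowest ABCF1 library, at 30.1 CPM per kb, lay above every fitted library of both. Undivided by length, ABCE1 was the highest, with a mean of 163 CPM, ahead of ABCF1 at 146 CPM and ABCF2 at 142 CPM. WT replicate 3 stood lower for ABCF2, at 91.2 CPM (141 counts), and for ABCE1, at 128 CPM. The lowest fitted libraries of these genes stood at 136 and 154 CPM. For ABCF1, WT replicate 3 stood at 146 CPM. ABCF2 shares same-strand exon sequence with the readthrough gene ABCF2-H2BK1. Its counts were not whole numbers in 6 of the 9 libraries, so part of its count came from reads that map to several places. Whether those reads lay in the shared sequence was not tested. ABCE1, with no such same-strand overlap, also had counts that were not whole numbers in 6 libraries.

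Ranks 4 and 5 per length, above ABCF3, went to ABCB10 of mitochondria and ABCD3 of peroxisomes. Their groups did not stay together in rank: ABCB6 ranked 18 and ABCD2 ranked 33. All 4 genes of the mitochondrial and heme or iron group were detected, with 12.9% of the family's CPM. Among them ABCB10, which supports heme synthesis at the inner mitochondrial membrane, was highest, at 9.75 CPM per kb (SD 0.935). In subfamily D, 3 of the 4 peroxisomal or lysosomal genes were detected, with 15.5% of the CPM. ABCD3, a peroxisomal fatty acid transporter, reached 9.43 CPM per kb (SD 0.868), in the same range as ABCB10. ABCD2, another peroxisomal fatty acid transporter, did not exceed 4 counts in any library.

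The multidrug efflux group, 9 genes, held 11.8% of the family's CPM and had 6 members detected. In this group ABCC5, which exports cyclic nucleotides and nucleotide analogues, stood highest at 2.83 CPM per kb, followed by ABCC1 at 2.74, ABCC4 at 2.59, ABCB1 at 1.43, ABCC10 at 0.973 and ABCG2 at 0.492 CPM per kb. ABCC2, the apical exporter of conjugates, ABCC3, its basolateral counterpart, and ABCC11 were not detected in all fitted libraries, with maxima of 9, 8 and 3 counts. Both liver exporters, ABCB4 and ABCB11, also missed detection; ABCB4, the phospholipid exporter that is the neighbour and closest relative of ABCB1 on chromosome 7, lay between 0.231 and 0.814 CPM. Sterol transporters held 0.478% of the family's CPM. In that group ABCG1 averaged 2.47 CPM and ABCA1, the cholesterol exporter that feeds nascent HDL, 0.654 CPM, while ABCG5 and ABCG8, partners in 1 sterol pump, averaged 0.330 and 0.109 CPM. These examples outside the rule for named genes were chosen after their values were seen.

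Within subfamily A, only ABCA2, ABCA3, ABCA5 and ABCA7 of its 12 genes were detected. ABCA3, the phospholipid transporter of lamellar bodies, had the highest level of these per length, 1.28 CPM per kb. ABCA5 lies in a cluster on chromosome 17 with ABCA6, ABCA8, ABCA9 and ABCA10 and averaged 13.3 CPM. None of the 4 other genes of the cluster averaged above 0.359 CPM. ABCA10 and ABCA5 overlap in exon sequence on the same strand; in all, 7 of the 45 genes share such sequence with another annotated gene, among them the detected ABCA5, ABCB6, ABCD4 and ABCF2.

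ABCB1 ranked 14 of 45 by mean CPM per kb, and between 14 and 16 within single libraries. By CPM undivided by length it ranked 17. The next gene above it was ABCC4, a cyclic nucleotide and drug exporter, whose 8 fitted libraries lay between 2.00 and 3.00 CPM per kb. Those of ABCB1 lay between 1.03 and 1.90 CPM per kb, without overlap. The next gene below was ABCA3, between 0.903 and 1.54 CPM per kb, and ABCB1 was the higher of the pair in 5 of 8 libraries, so the order of these neighbours was not the same in every library. Per length, ABCB1 stood 22.3-fold above ABCB4 and 2.91-fold above ABCG2, the other widely studied drug efflux gene, and was the higher gene in all 9 libraries in both pairs. Whether reads covered whole transcripts or mainly their 3′ ends is not given in the sources used here, and the length scale assumes the former.

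**Figure D1:**
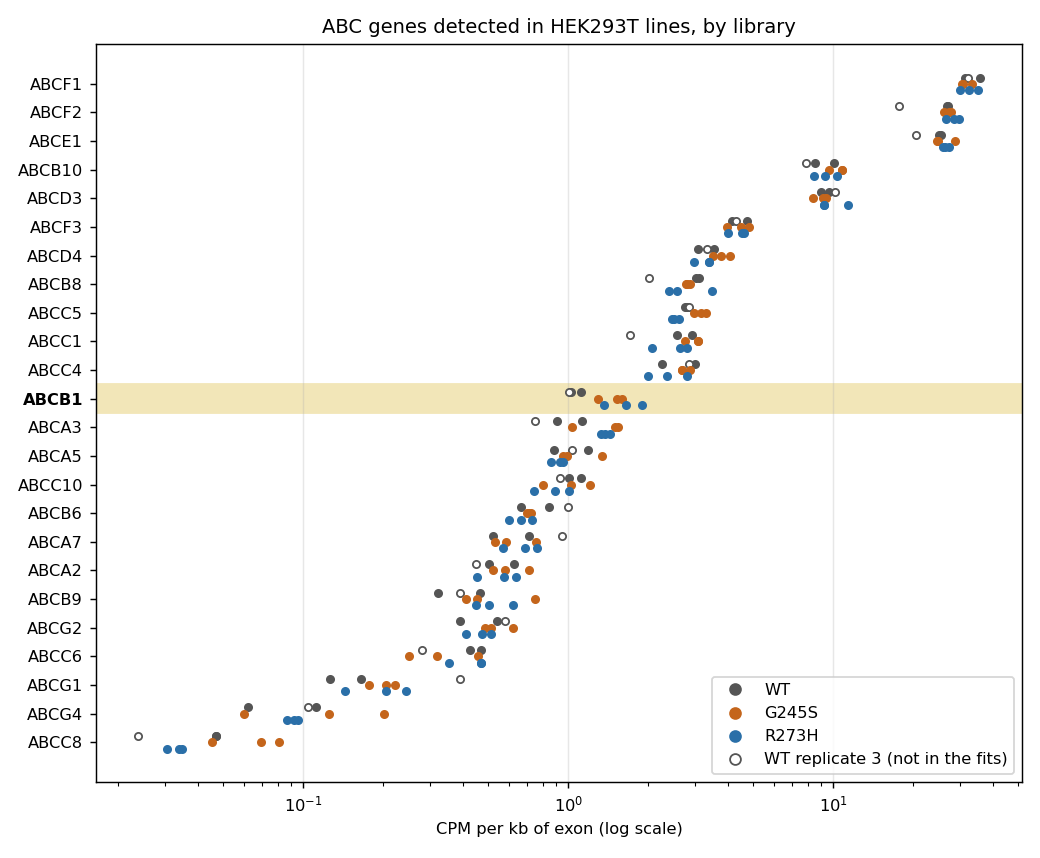
CPM per kb of exon (log axis) of 24 detected ABC genes in each of the 9 libraries, ordered by mean level, with ABCB1 shaded; filled points are the 8 fitted libraries and open points WT replicate 3. ABCF1, ABCF2 and ABCE1 form the top at 26.1 to 32.5 CPM per kb on average, and ABCB1 follows ABCC4 at rank 14 with a mean of 1.43.

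Promoter windows were matched by symbol for 35 of the 45 genes, with 53 starts. Taking for each gene its start with the most CpG, the 21 detected genes had a median of 29 CpG in 300 bases (range 15 to 66). GC content was taken as the highest over a gene's starts, whichever start that was, and had a median of 70.0%. The 14 genes not detected had a median of 5.5 CpG (range 1 to 28) and 49.2% GC. All protein-coding genes showed the same split, with a median of 29 CpG over 10480 detected genes and 7 over 4950 not detected, so the split was not particular to the ABC family. Motifs were counted on either strand at any start of a gene, not only at the start with the most CpG. GGGCGG was present in 81.0% of detected and 28.6% of undetected ABC genes, against 78.3% and 36.7% of detected and undetected protein-coding genes. The letters TATAAA were present in 9.52% and 42.9% of ABC genes, against 8.37% and 21.0%. CCAAT was held by 6 of the 21 detected (28.6%) and 5 of the 14 undetected (35.7%) ABC genes. Of the protein-coding genes, 4606 of 10480 detected and 1947 of 4950 undetected held it (39.3% of the latter). In the detected ABCB9 and the undetected ABCA10 and ABCC12, CCAAT was absent from the start with the most CpG. Resting on so few genes and on the choice of start, the ABC shares cannot show whether the family differs from all genes in CCAAT. ABCB1, with 16 CpG in its richer window, was near the lower end of the detected genes, next to ABCB8 with 15. ABCC11 with 28, ABCA1 with 23 and ABCC9 with 18 CpG were CpG-rich without being detected; a gene with several starts had several chances of a CpG-rich window.

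**Figure D2:**
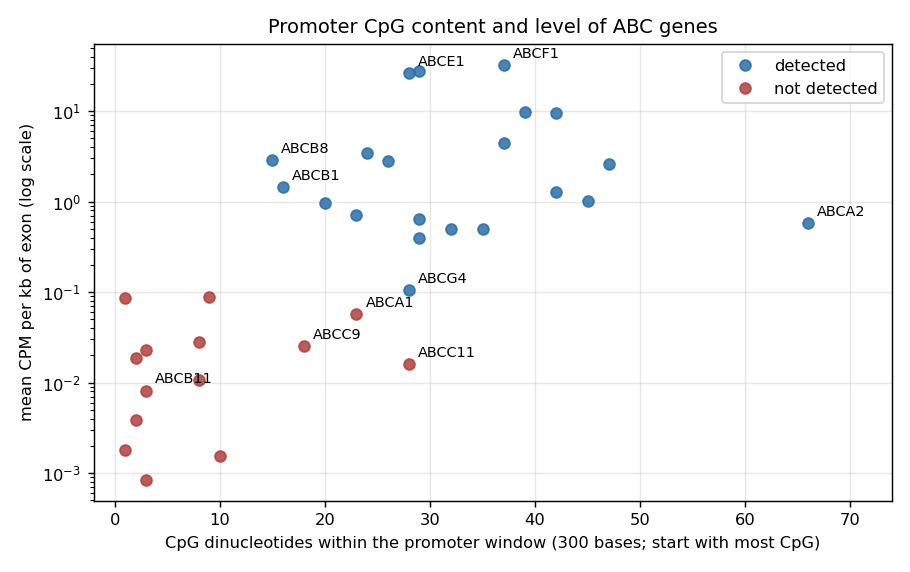
Number of CpG in the 300-base promoter window (start with the most CpG) against mean CPM per kb (log axis) for the 35 ABC genes with a matched promoter, coloured by detection. Detected genes begin at 15 CpG (ABCB8) and 16 (ABCB1), and only ABCA1, ABCC9 and ABCC11 among the undetected genes reach that range.

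The mutant lines were then compared with the WT line, to ask whether the p53 substitutions went with a different level of any ABC gene. No ABC gene passed the test. Of the 45 genes, 25 had enough counts to be tested and 20 did not. With edgeR's quasi-likelihood test and Benjamini-Hochberg adjustment over all genes, 0 of the 25 were called at 0.05 in G245S against WT, in R273H against WT or between the mutants, and DESeq2 also called 0. At an unadjusted p under 0.05 there were 2, 2 and 4 of the 25, with ABCB1 among the first, ABCB1 and ABCA3 the second, and ABCC5, ABCC8 and ABCD4 among the third. Over all genes tested the shares at that p were 6.66%, 6.11% and 4.75%, so that the counts over WT were near the background. Over all genes the share called was 0.126% in G245S (20 of 15893), 0.137% in R273H (22 of 16022) and 0% between the mutants, where 741 of 15614 genes had an unadjusted p under 0.05. The median log2 fold change of the 25 was 0.08 in G245S, -0.0083 in R273H and -0.04 for R273H over G245S, beside 0.0034, 0.0023 and -0.0048 over all genes tested. Leaving out single libraries moved the G245S median to 0.023 without WT replicate 1, 0.031 without G245S replicate 1 and 0.12 without G245S replicate 2. The 95% interval lay within ±1 on the log2 scale for 21, 23 and 24 of the 25 genes.

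ABCB1 had the smallest p-value of the 25 ABC genes in both comparisons with WT. Its WT libraries stood at 6.59 and 7.18 CPM, with 6.47 CPM in the shallow WT replicate 3, where it rested on 10 counts (exact Poisson 95% interval 3.10 to 11.9 CPM, for counting error only). Its G245S libraries stood at 10.3, 8.33 and 9.77 CPM and its R273H libraries at 10.6, 12.2 and 8.72 CPM. Every mutant library lay above every WT library, and the mutant groups overlapped each other. The mean was 6.88 ± 0.418 CPM in WT (SD, n = 2), 9.46 ± 1.01 in G245S (SD, n = 3) and 10.5 ± 1.74 in R273H (SD, n = 3).

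The log2 fold change of ABCB1 was 0.45 in G245S (SE 0.171, 95% interval 0.087 to 0.82, edgeR adjusted p = 0.667) and 0.61 in R273H (SE 0.180, 0.23 to 1.00, edgeR adjusted p = 0.496). The unadjusted p-values, 0.0190 and 0.00412, ranked 450 of 15893 and 133 of 16022 genes. R273H stood 0.15 above G245S (95% interval -0.17 to 0.48, edgeR adjusted p = 0.994), which leaves room for a difference in either direction. The comparisons with WT share the WT libraries. With both mutants together against WT, a contrast chosen after the values were seen, the log2 fold change was 0.53 (SE 0.162, edgeR adjusted p = 0.399). With all 3 WT libraries the values were 0.44 in G245S, 0.61 in R273H and 0.53 for both, none of them called.

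**Figure D3:**
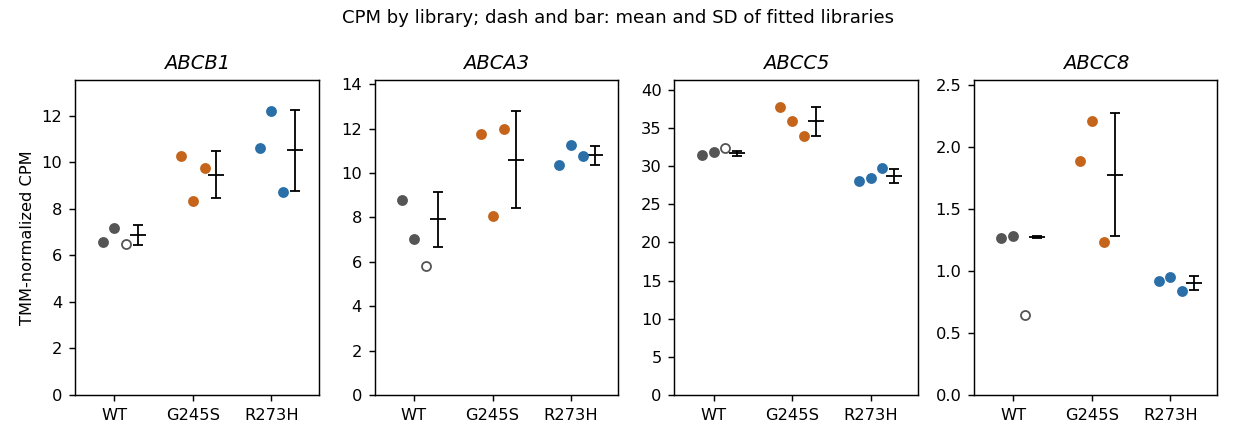
TMM-normalized CPM of ABCB1, ABCA3, ABCC5 and ABCC8 in each library (filled points fitted, open point WT replicate 3), with the mean and SD of the fitted libraries (n = 2 WT, 3 G245S, 3 R273H). ABCB1 lies at 8.33 CPM or more in all 6 mutant libraries and at 7.18 or less in the WT libraries, while ABCC5 lies above WT in G245S and below it in R273H; none of these differences passed the adjusted test.

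ABCA3 was next in R273H. It stood at 8.78 and 7.05 CPM in WT (5.82 in WT replicate 3), at 11.8, 8.07 and 12.0 CPM in G245S and at 10.4, 11.3 and 10.8 CPM in R273H. Its R273H libraries all lay above WT, and 1 G245S library lay within the WT range. The log2 fold change was 0.44 in R273H (SE 0.158, edgeR adjusted p = 0.687) and 0.41 in G245S (SE 0.194, edgeR adjusted p = 0.751). Both values moved with the WT library left out. Without WT replicate 2 they were 0.30 in R273H and 0.27 in G245S, and without WT replicate 1 they were 0.61 and 0.58. The counts of ABCA3 were not whole numbers in 7 of 9 libraries, so some of its reads mapped to more than 1 place.

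ABCB9, a peptide transporter of the lysosome, and ABCG1, an exporter of sterols, had fold changes of like size with wider errors. ABCB9 stood at 4.28 and 6.15 CPM in WT (5.18 in WT replicate 3), at 9.97, 5.99 and 5.44 CPM in G245S and at 8.18, 6.65 and 5.98 CPM in R273H. Its groups overlapped, with log2 fold changes of 0.47 and 0.43 (edgeR adjusted p = 0.797 and 0.861). These values rested on single libraries: in G245S the value was 0.13 without G245S replicate 1, 0.22 without WT replicate 1 and 0.75 without WT replicate 2, and in R273H it was 0.18 without WT replicate 1, 0.28 without R273H replicate 1 and 0.71 without WT replicate 2. ABCG1 gave 0.45 and 0.43, and in WT replicate 3 it stood at 5.18 CPM, above every fitted library.

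ABCC5 had the smallest p-value of the family between the mutants. It stood at 31.4 and 31.9 CPM in WT (32.4 in WT replicate 3), at 37.8, 35.9 and 34.0 CPM in G245S, and at 28.0, 28.5 and 29.8 CPM in R273H. All G245S libraries lay above, and all R273H libraries below, all 3 WT libraries. R273H over G245S was -0.31 on the log2 scale (SE 0.0851, 95% interval -0.49 to -0.13, edgeR adjusted p = 0.921).

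ABCC8, the sulfonylurea receptor of the potassium channel of insulin-secreting cells, gave the lowest fold change between the mutants, on few counts. WT held 11 and 10 counts and WT replicate 3 held 1, the G245S libraries 18, 17 and 10, and the R273H libraries 8, 7 and 7. R273H over G245S was -0.95 (SE 0.341, edgeR adjusted p = 0.956), with no overlap between the mutant groups. Its channel partner KCNJ11 averaged 3.62 CPM and gave 0.46 and 0.11 over WT in G245S and R273H, neither called.

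The abundant members gave the narrowest intervals. For ABCF1, ABCF2, ABCF3 and ABCE1 the log2 fold changes lay between -0.10 and 0.03 in G245S and between -0.04 and 0.08 in R273H. With all 3 WT libraries ABCF2 gave 0.10 in G245S and 0.18 in R273H, neither called. In the mitochondrial group ABCB10 stood at 43.1 and 36.4 CPM in WT (33.7 in WT replicate 3), at 46.2, 46.1 and 41.3 CPM in G245S and at 39.8, 44.1 and 36.0 CPM in R273H. Its mutant libraries overlapped WT, with log2 fold changes of 0.15 in G245S (95% interval -0.07 to 0.37) and 0.0069 in R273H (-0.23 to 0.24). From the same group, and named after their values were seen, ABCB8 gave -0.14 and -0.11 and ABCB6 -0.10 and -0.19.

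The 6 tested multidrug efflux genes centred on a median of 0.13 (log2 fold change) in G245S, 5 of them above 0, and on -0.13 in R273H, 2 above 0. ABCB1 was the highest of the 6 in both. ABCC4 stood at 19.5 and 25.9 CPM in WT (24.6 in WT replicate 3), overlapping both mutants, and gave 0.06 and -0.12. ABCG2 gave 0.19 (95% interval -0.42 to 0.81) and 0.01 (-0.60 to 0.62), intervals that at 2.76 CPM leave room for changes in either direction. The untested ABCC3 held 7 and 8 counts in WT (2 in WT replicate 3), 2, 1 and 1 in G245S and 4.2, 8 and 1 in R273H.

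Fitted libraries of G245S lay wholly above WT for 4 of the 25 genes (16%, with 12.8% of all genes) and wholly below for 1 (4%, with 9.19% of all genes): ABCB1, ABCC5 and ABCG1 were among the higher and ABCB8 was the lower. With WT replicate 3 counted, at 5.18 CPM for ABCG1 and 18.8 CPM for ABCB8, both of these overlapped. Those of R273H lay wholly above WT for 4, among them ABCB1, ABCA3 and ABCE1 (16%, with 9.64% of all genes) and wholly below for ABCC5 and ABCC8 (8%, with 11% of all genes). ABCC8 overlapped once WT replicate 3 was counted, at 0.647 CPM. R273H lay wholly below G245S for ABCC5, ABCC8, ABCD4 and ABCA5 (16%, with 5.55% of all genes) and wholly above for none (0%, with 3.55%). With 25 genes each share moves by 4% per gene.

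**Figure D4:**
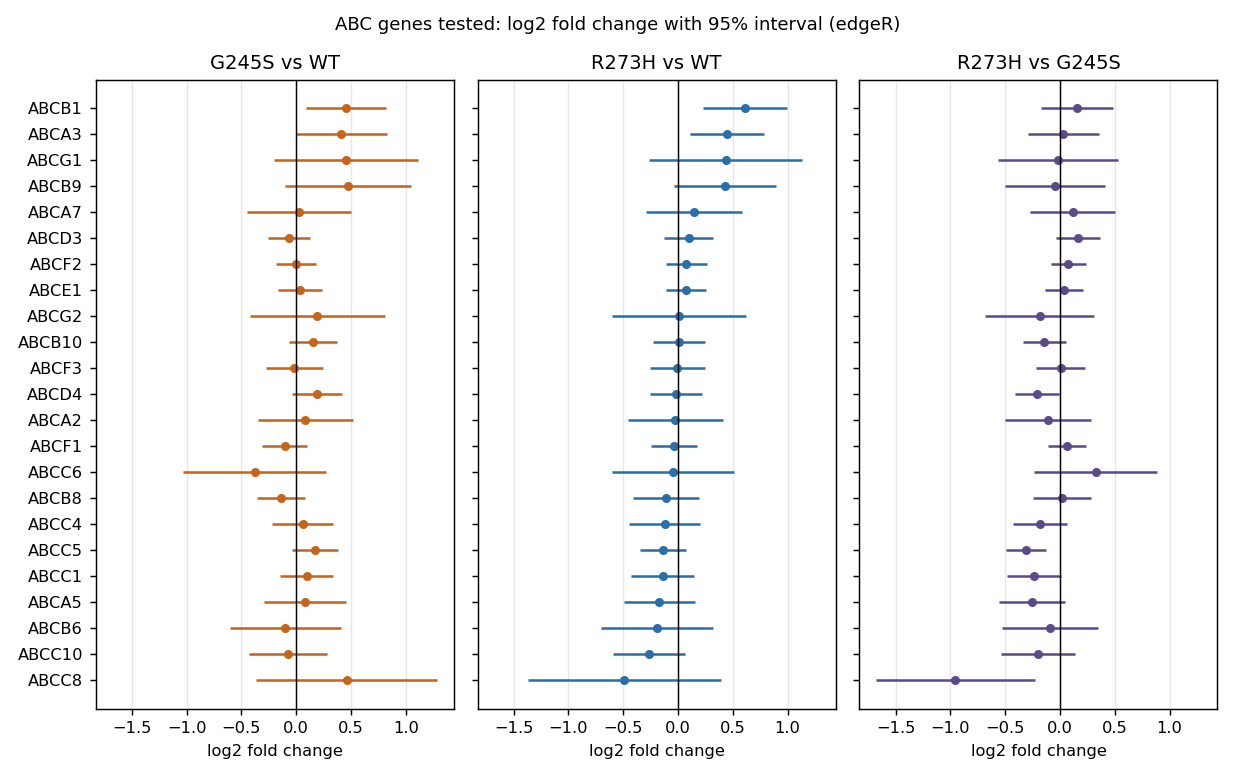
Log2 fold change with its 95% interval (edgeR) for 23 tested ABC genes in G245S against WT, R273H against WT and R273H against G245S, ordered by the R273H value. ABCB1 stands at 0.45 and 0.61 over WT, ABCC5 at -0.31 between the mutants, and the widest intervals belong to low genes such as ABCC8; no gene passed the adjusted threshold.

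Genes that act with the ABC family were followed in lists of regulators, partners, uptake carriers and drug-metabolizing enzymes, together with the superfamily members outside the naming rule. Of 97 such genes with counts deposited, 66 could be tested, and edgeR and DESeq2 each called 0 of them in every comparison; at an unadjusted edgeR p under 0.05 there were 8, 8 and 0 of the 66, beside the 6.66%, 6.11% and 4.75% of all genes. Among 22 regulators, 19 could be tested, with medians of -0.0100 in G245S and -0.03 in R273H. NR1I2 (PXR), the drug-sensing nuclear receptor that induces ABCB1 in liver and gut, had 0 counts in all 9 libraries, and NR1I3, its relative, did not exceed 3 counts. YBX1, which binds Y-box (inverted CCAAT) sequences, averaged 1022 CPM, and the CCAAT-binding subunit genes NFYA, NFYB and NFYC averaged 34.3, 25.7 and 92.3 CPM. SP1, which binds GC boxes, averaged 62.7 CPM. The log2 fold changes of these 5 genes lay between -0.20 and 0.11 in G245S and between -0.16 and 0.03 in R273H.

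Of 20 partners of ABC proteins, 17 could be tested, with medians of -0.0066 and 0.0025. They included PELO, which works with ABCE1 in ribosome rescue, at 39.7 CPM, PEX19, which brings ABCD proteins to the peroxisome, at 58.7 CPM, and KCNJ8, the channel partner of ABCC9, at 15.9 CPM where ABCC9 itself averaged 0.443 CPM. Of 19 drug uptake carriers 7 could be tested, with medians of 0.11 and 0.04, led by the nucleoside carrier SLC29A1 at 129 CPM. Of 35 drug oxidation and conjugation genes 21 could be tested, with medians of -0.0111 and 0.03; GSTP1, a glutathione transferase, averaged 488 CPM, while CYP3A4, which shares many substrates with P-glycoprotein, did not exceed 1 count. A further 3 genes of the superfamily with other names stood outside the rule: the peptide transporters of antigen presentation, TAP1 at 10.7 CPM and TAP2 at 19.1 CPM, with log2 fold changes of -0.21 and 0.30 in G245S and -0.23 and 0.14 in R273H, none called, and the chloride channel gene CFTR, with 0 counts in all 9 libraries.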

How the data were processed

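Per the labels and the study's methods, the authors filtered reads with fastp 0.24.0, aligned them to GRCh38 with STAR 2.7.11, removed duplicates with UMICollapse and counted by strand with featureCounts (Subread 2.1.1), splitting a read that maps to several places between them; exons and 3′UTRs were the counted features. The deposited values are therefore estimated counts; they were rounded for testing. The 9 deposited CPM columns were not used. ABC genes and gene lists were chosen with earlier results of these data known. Genes passing filterByExpr were fitted per pair of groups with TMM scaling and edgeR 4.0.16's quasi-likelihood test (R 4.3.3), with p-values adjusted by Benjamini-Hochberg over all genes and a threshold of 0.05. The lowest WT library was left out because its total was below 0.5 times the median of the others. Printed CPM is TMM-scaled over 9 libraries; CPM per kb divides by the deposited exon length, a column the authors labelled length. Counting intervals and the detection limit cover counting error only. The test was first tried on simulated data. Genes named singly were ABCB1, any ABC gene called, the 3 smallest p-values of each comparison, the 5 highest per length and the neighbours of ABCB1 in rank. Alternatives were DESeq2 1.42.0, other scalings, other filters, other WT libraries, 1 joint fit, whole against fractional counts, protein-coding genes alone, a replicate block and leaving out each library. Same-numbered libraries of the mutants did not all deviate together, and 2 fitted WT libraries were too few to judge pairing with WT. Values of the p53 gene and of 2 ABC genes, which stay in the counts, are not reported here.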

Additional observations from a re-analysis of the deposited data

Results flagged for a closer look

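ABCC5 was the single ABC gene for which every G245S library lay on one side of all fitted WT libraries and every R273H library on the other. The log2 fold change was 0.17 over WT in G245S, -0.13 over WT in R273H and -0.31 for R273H over G245S (SE 0.0851, edgeR adjusted p = 0.921), so the difference between the mutants, though tested, did not pass the adjusted threshold. Of all 15638 genes tested in both comparisons, 33 (0.211%) had the mutants on opposite sides of WT in this way. No group held more than 3 samples, so single libraries were not screened as outliers within groups.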

How the results depend on the processing

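No ABC gene was called in any of 49 combinations of comparison and alternative. ABCB1 stayed above 0 over WT in all 34 alternatives, at 0.39 to 0.53 in G245S and 0.49 to 0.74 in R273H. Its adjusted p did not go below 0.375 and 0.132. All 34 reuse the same libraries, in which every mutant library lay above every WT library. The kept direction is therefore no separate support. ABCB1 had the smallest p of the tested ABC genes in 26 of these 34. By CPM undivided by length its rank was 17 in place of 14. Of 532 alternative fold changes of named genes, 511 kept their direction.

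The 21 reversals were of genes near 0, none called. ABCF2 in G245S became 0.10 with all 3 WT libraries, 0.19 with WT replicates 1 and 3, 0.16 with WT replicates 2 and 3 and 0.0068 with no filter on low counts. ABCC4 in G245S became -0.16 with WT replicates 2 and 3. In R273H, WT replicates 1 and 3 gave -0.041 for ABCB10 and -0.022 for ABCD3. ABCF2 itself stood at 138 and 140 CPM in WT replicates 1 and 2, and at 91.2 CPM in WT replicate 3. The cause of the reversals was not tested.

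Leaving out 1 library at a time, G245S over WT ran from -0.029 to 0.021 for ABCF2, from -0.037 to 0.068 for ABCE1 and from -0.14 to 0.27 for ABCC4. R273H over WT ran from -0.13 to 0.063 for ABCF1, from -0.10 to 0.13 for ABCB10, from -0.013 to 0.15 for ABCD3 and from -0.32 to 0.094 for ABCC4. R273H over G245S ran from -0.12 to 0.13 for ABCA3 and from -0.20 to 0.29 for ABCB9. The median over the ABC genes tested in each fit ran from 0.023 to 0.12 in G245S, from -0.024 (24 genes, without R273H replicate 1) to 0.058 (26 genes, without WT replicate 2) in R273H and from -0.14 (without R273H replicate 1) to 0.0027 between the mutants.

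Replicate numbers were shared by the groups. Between the mutants, correlations of deviations were 0.205, 0.329 and -0.00091 for same-numbered libraries, and ran from -0.300 to 0.151 for differently numbered libraries. Same-numbered correlations with WT were below 0. The 2 fitted WT libraries deviate from their mean in exactly opposite ways, so the correlations with WT cannot judge pairing. With the replicate block ABCB1 gave 0.42 in G245S, 0.74 in R273H and 0.15 between the mutants, and no ABC gene was called. Calls over all genes moved from 20 to 76, 22 to 47 and 0 to 59 with the block. With no filter on low counts they were 144, 93 and 125, and DESeq2 gave 18, 23 and 1. With WT replicates 1 and 3 they were 3 and 4, with WT replicates 2 and 3 they were 16 and 13, and with all 3 WT libraries 10 and 16. Leaving out 1 library gave 10 to 30 in G245S, 16 to 29 in R273H and 0 to 3 between the mutants.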
